A study of Mus musculus with 4 samples.

Results

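The DDX and DHX RNA helicases were examined in ribosome-protected RNA from proliferating primary mouse myoblasts. Members were all protein-coding genes of the deposited table whose symbol starts with Ddx or Dhx followed by a digit, leaving out the Y-linked gene Ddx3y, which gave 52 helicases among 55573 genes, of which 21900 were protein-coding. The values were RPKM, that is, reads scaled by gene length and by library size. A helicase was tested where its mean over the 4 libraries was at least 1 RPKM, and 47 of the 52 were.

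Myoblasts were isolated from hind-limb muscle of 3-week-old mice and collected on day 2 of proliferation in medium with 10% fetal bovine serum and 10 ug/ml FGF. There were 2 libraries of genotype WT and 2 of genotype eIF5A knockout (KO). eIF5A binds the ribosome, bears the spermidine-derived residue hypusine and helps ribosomes past stretches that are slow to translate. The study made the knockout with a tamoxifen-inducible Cre from the Pax7 locus (Pax7 CreERT2/+; eIF5A f/f), so that the gene is removed only in cells that have expressed Pax7, and other cells in the culture keep it. The WT mice were littermates, which the study describes in different places as Pax7 CreERT2/+ and as Pax7 +/+; eIF5A f/f, so whether the control cells carried Cre or the floxed allele is not known here. All cells received cycloheximide at 100 ug/ml, which holds ribosomes on mRNA. The titles of the libraries read Polysome-Seq, an assay that the study lists apart from Ribo-seq, but their extraction steps are those of ribosome profiling, with RNase I digestion and isolation of protected fragments. On that basis the values are called ribosome-protected, and which of the assays the titles meant is not settled by the sources used here. Nothing in the labels says that libraries of a group came from separate animals, and the spread between them may be technical.

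RNA helicases use ATP to part RNA strands or to strip proteins from RNA. The DDX proteins, named after the DEAD-box, mostly open short duplexes locally, whereas the DHX proteins, named after the DEAH-box, move along a strand. Between them they serve transcription, splicing, export, translation, decay, ribosome assembly and the sensing of viral RNA. In muscle, DDX5 and DDX17 are known as partners of MyoD, the transcription factor that commits cells to myogenesis.

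The targeted gene and the cell markers were checked before the helicases. Eif5a gave 34.9 and 65.2 RPKM in WT libraries 1 and 2 and 60.3 and 59.4 RPKM in the KO-labelled libraries. Its mean was higher, not lower, in the KO-labelled libraries (log2 fold change 0.32, SE 0.48, adjusted p = 0.839 by limma). WT library 1 was the lowest of the 4, and the log2 fold change was -0.12 without it. The labelled knockout is therefore not visible in the ribosome-protected signal of this gene, and the libraries are called KO-labelled throughout. The study measured the knockout in satellite cells by RT-qPCR and by immunostaining and reports that it was established. How far it held in the myoblasts of these libraries was not tested. Protein-coding genes held 41.5% and 33.9% of the recovered reads in WT libraries 1 and 2, against 65.4% and 59.2% in the KO-labelled libraries, at 642429 to 704006 reads per library. All 8 tested myoblast markers had a log2 fold change below 0, with a median of -1.43, and 5 of them had an unadjusted p under 0.05 by limma, with none past the adjusted threshold. Their summed level was 339 and 199.6 RPKM in WT and 98.4 and 120.5 RPKM in the KO-labelled libraries. Pax7 was at 8.49 and 3.62 RPKM in WT and at 0.941 and 1.48 RPKM in the KO-labelled libraries, and Myod1 was present in all 4 libraries (140 and 117 RPKM against 48.6 and 79.8 RPKM). Of the 8 fibroblast markers, 6 had a value above 0, and their sum ran from 270.5 to 461 RPKM in WT and from 346 to 775 RPKM in the KO-labelled libraries. All 6 endothelial markers had a value above 0 (sums of 179 and 266 RPKM against 286 and 350 RPKM). Of the 6 immune markers, 3 were tested, of which Cd68 (14.8 to 23.6 RPKM) and Lyz2 (4.19 to 12.9 RPKM) were lower and Adgre1 (0.512 to 4.43 RPKM) was higher in both KO-labelled libraries than in WT, and of the other 3 only Itgam was at 0 in every library. The part of cell composition in the helicase values below was not tested. In bulk samples such as these, fewer cells of a type cannot be told apart from less RNA on ribosomes in each cell.

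The helicases were first sorted by motif II, the short stretch of protein that binds ATP and magnesium and gives the families their names. Translation of the longest annotated coding sequence of each gene (GENCODE M21, build GRCm38) gave DEAD in 27 helicases, DEAH in 9, DEVH in 5, DEVD in 3 (Ddx21, Ddx28 and Ddx50), DECD in 2 (Ddx39 and Ddx39b), DECH in 2 (Ddx58 and Dhx58), DEIH in 2 (Dhx9 and Dhx36) and DESD in 1 (Ddx52). No match was found for Dhx32. The coding DNA around motif II is shown for 8 helicases that the results below turn on, with the 4 motif codons in capitals. These windows show the letters that separate the groups, since a final GAT or GAC codes for the closing D of the DDX type and CAT or CAC for the closing H of the DHX type.
Ddx5: cttgtccttGATGAAGCTGATaggatgctt
Ddx3x: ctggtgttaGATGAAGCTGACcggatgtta
Ddx41: ctagccctgGATGAAGCTGACcgcatgatt
Ddx39b: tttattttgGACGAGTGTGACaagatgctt
Ddx21: gttgtcctgGATGAAGTCGACcagatgttg
Dhx15: ataattcttGATGAGGCCCATgaaagaaca
Dhx9: gttattgtgGATGAAATTCATgaaagagat
Ddx58: atgatatttGATGAGTGTCATaacactagc
Each window lies within a coding exon. They are at chr11:106785184-106785213 (minus strand) for Ddx5, chrX:13289399-13289428 (plus) for Ddx3x, chr13:55533047-55533076 (minus) for Ddx41, chr17:35247081-35247110 (plus) for Ddx39b, chr10:62591872-62591901 (minus) for Ddx21, chr5:52171487-52171516 (minus) for Dhx15, chr1:153468880-153468909 (minus) for Dhx9 and chr4:40223876-40223905 (minus) for Ddx58. The symbol did not always name the motif. Ddx11, Ddx58 and Ddx60 have a motif that ends in H, and 33 helicases ended in D and 18 in H.

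The level of the helicases on ribosomes spanned much of the range of tested genes. Ddx5 was the most abundant per length and ranked 255 of 9877 tested protein-coding genes by mean RPKM, followed by Ddx3x (rank 315) and Ddx39b (rank 393), and Ddx55 was the lowest at rank 9036. These leading 3 helicases took 23.5% and 25.7% of the helicase reads in WT and 30.4% and 30.8% in the KO-labelled libraries. The order of the leading 3 was not fixed, since Ddx39b exceeded Ddx3x in WT library 1 and Ddx3x exceeded Ddx5 in WT library 2. Over 4 libraries, 25 of the tested helicases had at least 100 reads, and the other 22 rest on fewer.

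**Figure D1:**
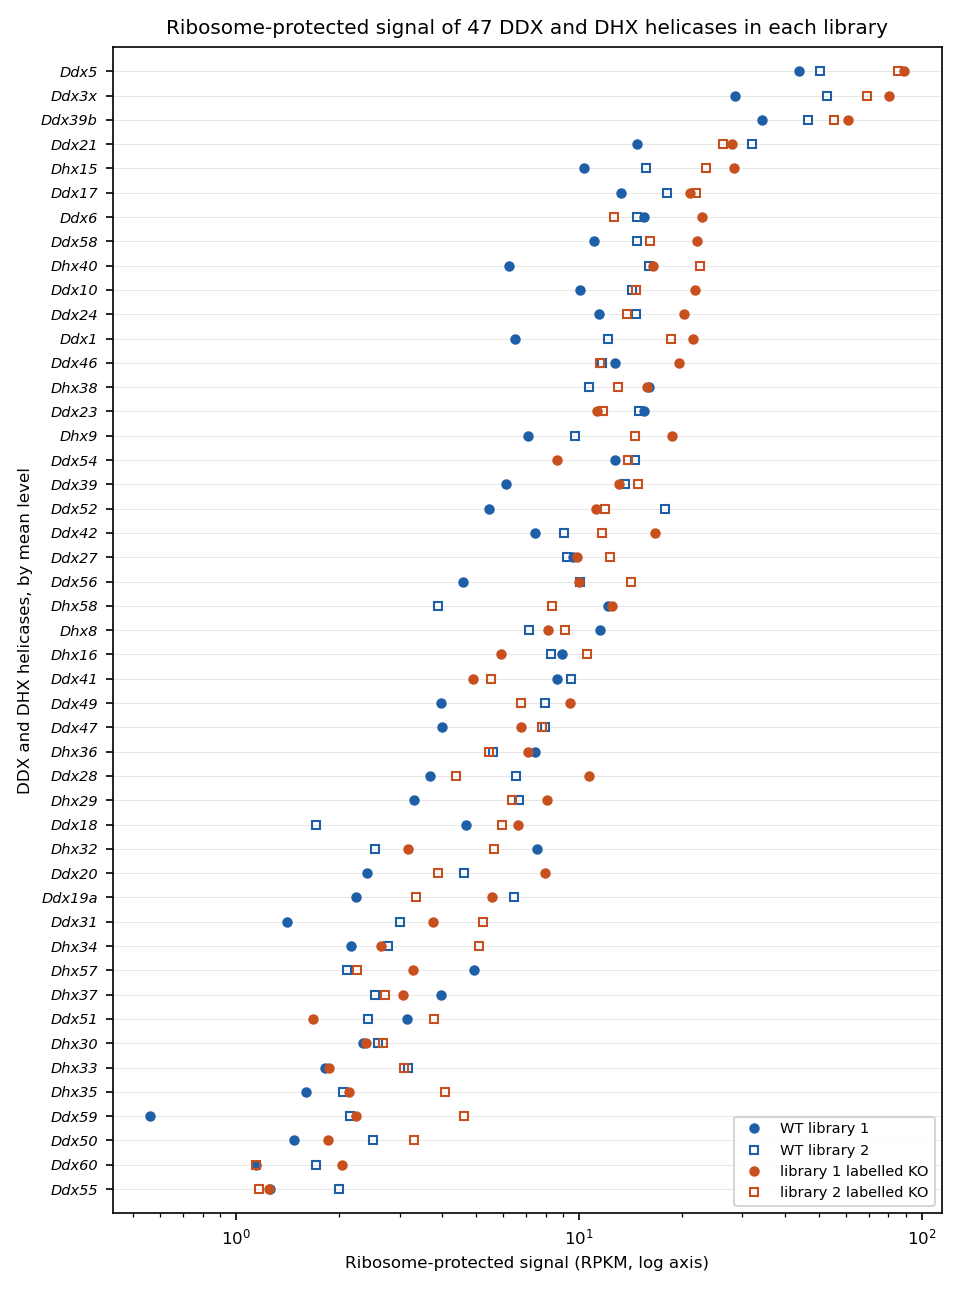
Ribosome-protected signal (RPKM, log axis) of the 47 tested helicases, ordered by mean level, with WT libraries in blue, KO-labelled libraries in orange, filled circles for library 1 and open squares for library 2. Ddx5, Ddx3x and Ddx39b have the highest mean levels, although Ddx3x in WT library 1 (28.6 RPKM) lies left of Ddx21 in WT library 2 (32.0 RPKM). In 16 helicases both orange symbols lie to the right of both blue ones.

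As a family the helicases had mostly higher values in the KO-labelled libraries, although no helicase passed the test. Of the 47 tested, 35 had a log2 fold change above 0 and 12 below, which is 74.5% above 0, where 53.1% of the 9877 tested protein-coding genes were above 0. The median log2 fold change was 0.34 for the helicases and 0.05 for protein-coding genes, after 1 was added to each RPKM, an addition that shrinks the differences of genes with few reads. The range ran from -0.69 for Ddx41 to 1.08 for Ddx1. In 16 helicases both KO-labelled libraries lay above both WT libraries, and in 3 they lay below, while over protein-coding genes 22.4% lay above and 19.3% below. Counted over the tested helicases, 0 were called at an adjusted p under 0.05 by limma (smallest 0.672) and 0 at an unadjusted p under 0.05. Of the tested protein-coding genes 0 were called at the adjusted threshold too, beside 0.106% of all tested genes, and 2.94% were higher and 3.04% lower at the unadjusted threshold. limma-voom on the recovered reads called 0 of 48 helicases and 6 of 8730 protein-coding genes, with 3 helicases and 3.59% of protein-coding genes higher at an unadjusted p under 0.05. With a library left out, 2 helicases (without WT library 1) and 7 (without WT library 2) were higher at an unadjusted p under 0.05 by limma, where 3.74% and 7.50% of protein-coding genes were. A group of 1 library separates more readily, and with a library left out 22 to 31 helicases had groups apart upward and 6 to 9 downward, beside 34.2% to 39.8% and 30.0% to 38.0% of protein-coding genes. Among helicases with at least 100 reads, 21 of 25 were above 0 with a median of 0.45, beside 62.0% above 0 and a median of 0.19 for the 3355 protein-coding genes with as many reads.

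The size of the family's shift depended on 1 WT library and on the scaling. Within each library, the median of the helicases around their own means on the log2 scale was -0.38 in WT library 1, -0.02 in WT library 2, 0.19 in KO-labelled library 1 and 0.13 in KO-labelled library 2, so WT library 2 lay nearer to the KO-labelled libraries than WT library 1 did. Leaving out WT library 1 gave a median fold change of 0.23, and leaving out WT library 2 gave 0.61. The library sizes behind the deposited RPKM came to 602863 and 471136 in WT and 906990 and 807705 in the KO-labelled libraries. The recovered reads summed to 648386 and 642429 in WT and to 704006 and 650210 in the KO-labelled libraries. The deposited scaling thus used sizes below the summed reads in WT and above them in the KO-labelled libraries. Scaled to the same number of reads over all genes, the median of the helicases was 0.90 beside 0.52 for protein-coding genes. Scaled to the same number of protein-coding reads it was 0.23 beside -0.04. A scaling multiplies all genes of a library by the same factor and so bears little on the distance between the helicases and other genes. Single helicases moved too, and with the same number of reads over all genes Ddx5 was at 1.48. The plot of medians by processing choice shows this for all 16 settings.

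**Figure D2:**
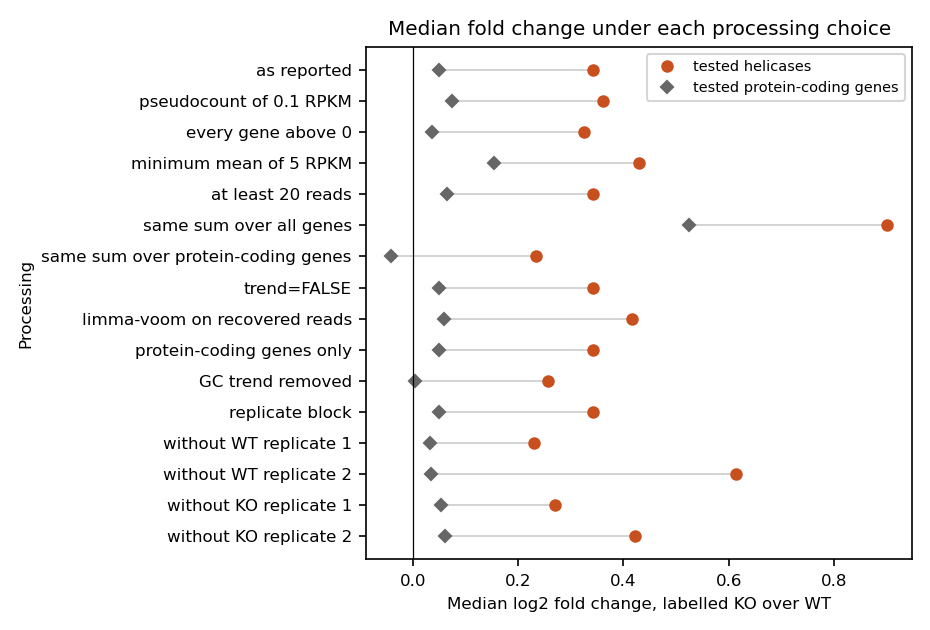
Median log2 fold change (labelled KO over WT) of the tested helicases (circles) and of tested protein-coding genes (diamonds) as reported and under each other processing choice. The helicases lie to the right of protein-coding genes in all 16 rows, from 0.23 to 0.90.

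Together the helicases took a larger share of the protein-coding reads in the KO-labelled libraries. The share was 0.51% (95% Wilson interval 0.484 to 0.537) in WT library 1 and 0.628% (0.596 to 0.662) in WT library 2, and 0.757% (0.733 to 0.783) and 0.726% (0.7 to 0.754) in the KO-labelled libraries, where the intervals cover counting error only. The groups did not overlap. The mean was 0.569% ± 0.0837 (SD, n = 2) in WT and 0.742% ± 0.022 (SD, n = 2) in the KO-labelled libraries, a ratio of 1.30, with a two-sided exact permutation p = 0.333, the smallest that 2 libraries against 2 can give. The difference was 0.173 percentage points, 0.131 without Ddx5 and 0.0866 without Ddx5, Ddx3x and Ddx39b. Taken over all reads rather than protein-coding reads, the shares were 0.212% and 0.213% in WT and 0.495% and 0.43% in the KO-labelled libraries, a ratio of 2.18, so the size of the ratio depends on the denominator. For the share of protein-coding reads, leaving out WT library 1 made the difference 0.114 and leaving out WT library 2 made it 0.232. The reads behind the shares numbered 1372 and 1367 (WT) and 3485 and 2797 (KO-labelled).

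**Figure D3:**
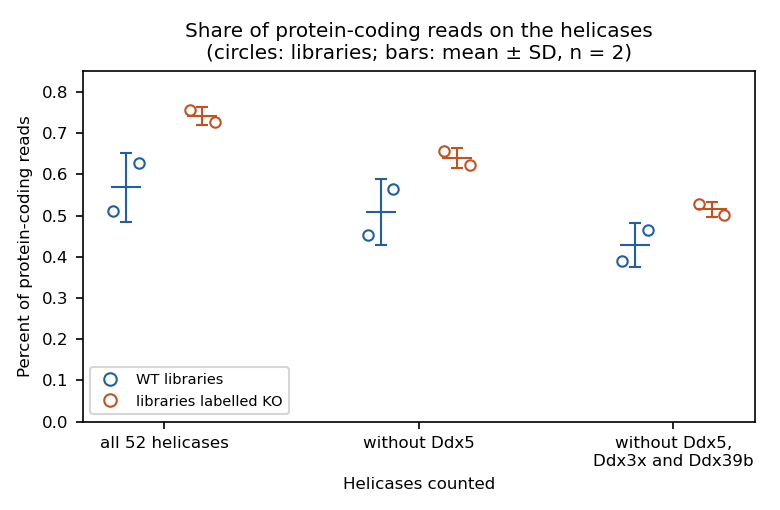
Share of protein-coding reads on the helicases (percent) for all 52, without Ddx5 and without the 3 most abundant, with circles for libraries and bars for the mean ± SD (n = 2 per group). In each of the 3 sets both KO-labelled libraries lie above both WT libraries.

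**Figure D4:**
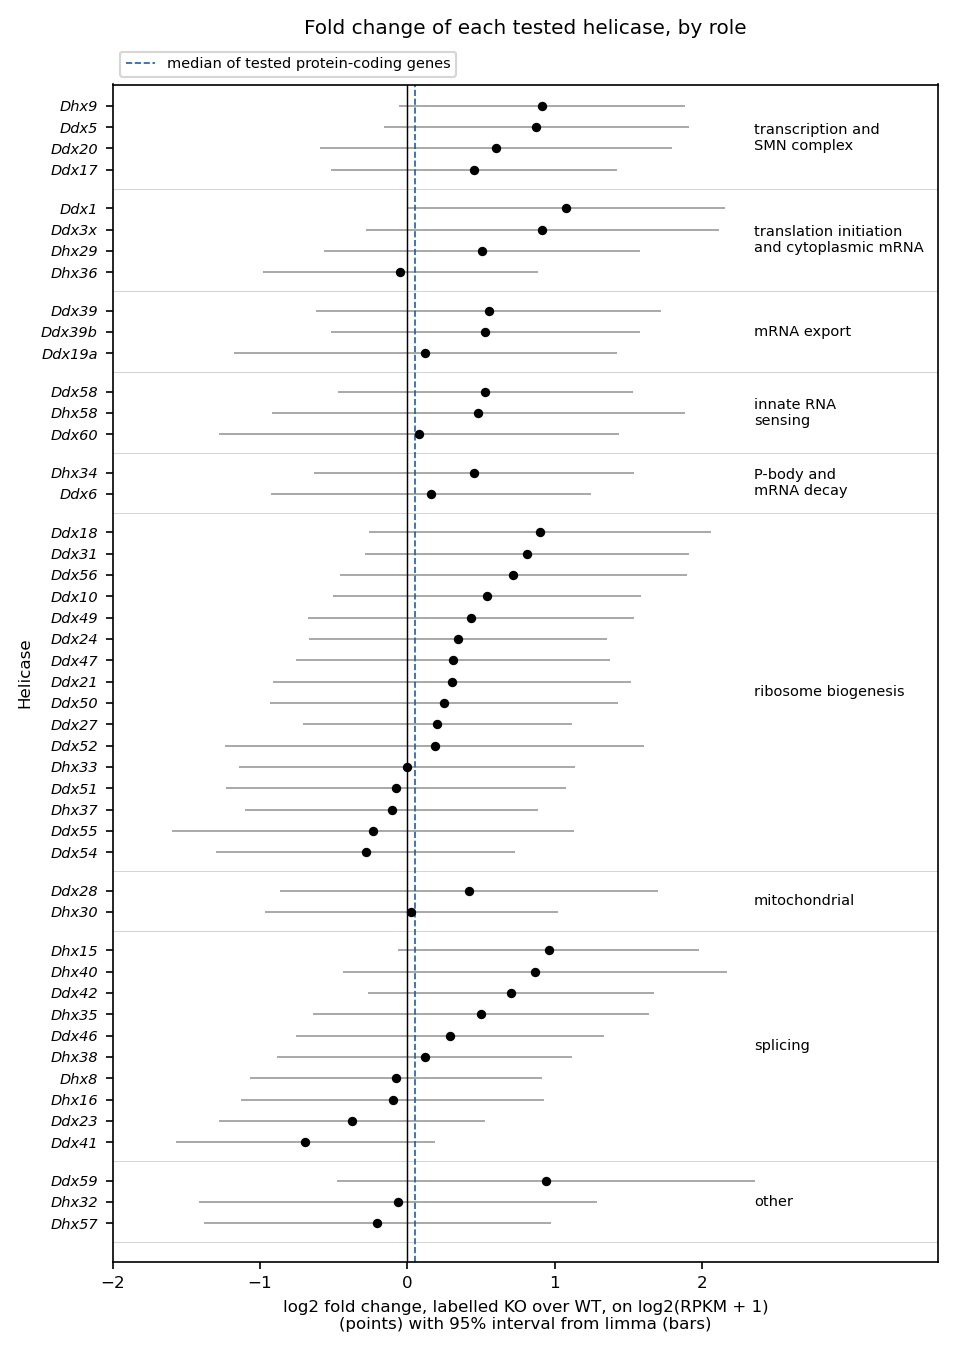
log2 fold change (labelled KO over WT, on log2(RPKM + 1)) of each tested helicase with its 95% interval from limma, grouped by role, with the median of protein-coding genes as a dashed line. All 47 intervals include 0, and the points of the transcription and export groups all lie to the right of 0.

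The helicases of transcription and of the SMN complex, which assembles spliceosomal particles, had the highest median of the role groups (0.74, with 4 of 4 tested members above 0 and 3 with groups apart upward, where 53.1% and 22.4% of protein-coding genes were). The role groups were not matched for GC content of the coding sequence. Its median was 46.35% in this group and 45.59% in the translation group, beside 52.44% in splicing and 52.15% in ribosome biogenesis. Ddx5 codes for a transcription coregulator that also works with Drosha in microRNA processing. It was at 43.9 and 50.4 RPKM in WT and at 89.0 and 85.3 RPKM in the KO-labelled libraries (153, 137, 466 and 398 reads). Both KO-labelled libraries stood well above both WT libraries, and the libraries of each group lay close together (log2 fold change 0.88, SE 0.42, adjusted p = 0.676 by limma). With the trend on GC content removed within each library it was 0.54. Dhx9 codes for RNA helicase A, which resolves double-stranded RNA and R-loops. Its levels were 7.08 and 9.73 RPKM in WT and 18.7 and 14.6 RPKM in the KO-labelled libraries, again with groups apart (0.91, SE 0.40, adjusted p = 0.675 by limma). Ddx20, the Gemin3 subunit of the SMN complex, gave 2.40 and 4.61 RPKM against 7.99 and 3.89 RPKM, and its groups overlapped.

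Helicases of translation initiation and the cytoplasmic mRNA had a median of 0.71, with 3 of 4 above 0, where 53.1% of protein-coding genes were. Ddx1, a subunit of the tRNA ligase complex, was counted in this group, and the group median rests partly on it. Ddx1 had the highest fold change of the family. It was at 6.53 and 12.1 RPKM in WT and at 21.5 and 18.5 RPKM in the KO-labelled libraries, from 20, 29, 99 and 76 reads. No value of one group reached the other, and the WT libraries differed more from each other than the KO-labelled libraries did (1.08, 95% interval -0.004 to 2.16, adjusted p = 0.672 by limma). Its log2 fold change fell to 0.68 when WT library 1 was left out and came to 1.48 when WT library 2 was. Ddx3x, which helps the scanning ribosome through structured leaders, gave 28.6 and 53.1 RPKM in WT and 80.2 and 69.2 RPKM in the KO-labelled libraries. Its groups were apart too, and here as well WT library 1 was well below the rest (0.92, SE 0.49, adjusted p = 0.686 by limma). Leaving out WT library 1 gave 0.48 for Ddx3x, and leaving out WT library 2 gave 1.35. Ddx3x has a near-identical copy on the Y chromosome, and reads shared with it could not be traced. Dhx29, which binds the small ribosomal subunit on structured leaders, was at 3.31 and 6.71 RPKM against 8.07 and 6.39 RPKM, and its log2 fold change was 0.09 when WT library 1 was left out and 0.93 when WT library 2 was. Dhx36, which unwinds G-quadruplexes, was at 7.47 and 5.61 RPKM against 7.12 and 5.45 RPKM. Neither Dhx29 nor Dhx36 separated the groups, and the latter had a log2 fold change of -0.05, which ran from -0.23 to 0.13 with a library left out and was -0.40 with the GC trend removed.

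The mRNA export helicases were read mostly through Ddx39b. Ddx39b, known as UAP56, loads export factors onto spliced mRNA in the TREX complex. Its levels were 34.2 and 46.6 RPKM in WT and 60.9 and 55.3 RPKM in the KO-labelled libraries, with groups apart (0.53, SE 0.43, adjusted p = 0.721 by limma), and the log2 fold change was 0.31 when WT library 1 was left out. Its paralogue Ddx39 was at 6.11 and 13.6 RPKM in WT and at 13.0 and 14.9 RPKM in the KO-labelled libraries, so that WT library 2 lay between the KO-labelled libraries and the groups overlapped. The log2 fold change of Ddx39 was 0.03 when WT library 1 was left out and 1.07 when WT library 2 was. Ddx19a, which releases mRNA at the nuclear pore together with Gle1, was at 2.24 and 6.46 RPKM against 5.59 and 3.35 RPKM. Its log2 fold change of 0.12 was -0.48 without WT library 1 and -0.18 without KO-labelled library 1.

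The 10 splicing helicases ran from -0.69 to 0.96, with 6 above 0, 4 below and a median of 0.20. Dhx15, which takes the spliceosome apart after splicing, was at 10.3 and 15.7 RPKM in WT and at 28.3 and 23.5 RPKM in the KO-labelled libraries. All of its values in the KO-labelled libraries exceeded those in WT (0.96, SE 0.42, adjusted p = 0.675 by limma). Ddx41, a spliceosomal helicase that is also described as a sensor of DNA, had the lowest fold change of the family. It was at 8.64 and 9.48 RPKM in WT and at 4.92 and 5.53 RPKM in the KO-labelled libraries (-0.69, SE 0.36, adjusted p = 0.680 by limma). The groups were apart, on 14, 12, 12 and 12 reads. Its log2 fold change was -0.16 with libraries scaled to the same number of reads over all genes and -0.79 with the same number of protein-coding reads, where the median of protein-coding genes was 0.52 and -0.04. Ddx23, the helicase that hands the splice donor site over between small nuclear RNAs, was at 15.4 and 15.0 RPKM in WT and at 11.3 and 11.7 RPKM in the KO-labelled libraries, on 44 to 64 reads per library. The libraries of each group lay close together and did not overlap (-0.37, SE 0.37, adjusted p = 0.743 by limma), and its log2 fold change was 0.20 and -0.48 under the same 2 scalings, below the median of protein-coding genes in each. Ddx46, which acts on the branch-site particle, was at 12.7 and 11.6 RPKM in WT and at 19.6 and 11.5 RPKM in the KO-labelled libraries, and only KO-labelled library 1 was high. Its log2 fold change of 0.29 was -0.07 without that library. The other 6 splicing helicases ran from -0.10 for Dhx16 to 0.86 for Dhx40.

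Of the 16 helicases of ribosome biogenesis, 11 were above 0 and 5 below, with a median of 0.28. Groups were apart upward in 4 of them and downward in 1, a share near the 22.4% of protein-coding genes upward and under the 19.3% downward. Ddx21, which couples transcription of rRNA to its processing, was at 14.7 and 32.0 RPKM in WT and at 27.9 and 26.3 RPKM in the KO-labelled libraries. WT library 2 was the highest of the 4 and WT library 1 the lowest, and the log2 fold change of 0.30 was -0.23 without WT library 1. Its paralogue Ddx50 was much lower, at 1.47 and 2.51 RPKM in WT and 1.85 and 3.30 RPKM in the KO-labelled libraries, with overlapping groups. Ddx55, a nucleolar helicase of the large subunit, was the third helicase below WT with groups apart, at 1.25 and 2.00 RPKM against 1.25 and 1.17 RPKM. These values rest on 4, 5, 6 and 5 reads, and WT library 1 and KO-labelled library 1 were nearly equal. The log2 fold change of Ddx55 was -0.44 when WT library 1 was left out and -0.03 when WT library 2 was. The other 13 ran from -0.28 for Ddx54 to 0.90 for Ddx18, the latter on 7, 2, 15 and 12 reads.

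The remaining roles were smaller. The 3 sensors of viral RNA were all above 0, with a median of 0.48. Ddx58, which codes for RIG-I, was at 11.1 and 14.8 RPKM in WT and at 22.1 and 16.2 RPKM in the KO-labelled libraries, with groups apart (0.53, SE 0.41, adjusted p = 0.714 by limma). Its log2 fold change was 0.34 when WT library 1 was left out and 0.32 when KO-labelled library 1 was. Ifih1, which codes for the related sensor MDA5 and was counted among the other helicases, was at 6.91 and 6.50 RPKM against 14.6 and 10.0 RPKM. Dhx58, which codes for LGP2, a regulator of these sensors, had a log2 fold change of 0.48 and Ddx60 of 0.08, both with overlapping groups. Ddx6, which represses translation in P-bodies and promotes decapping through its partners, was at 15.5 and 14.8 RPKM in WT and at 22.9 and 12.6 RPKM in the KO-labelled libraries. The WT values of Ddx6 lay between those of the KO-labelled libraries, and its log2 fold change of 0.16 was -0.24 without KO-labelled library 1. The other decay helicase, Dhx34, which acts in nonsense-mediated decay, was at 0.45. Dhx30, a helicase of the mitochondrial ribosome, showed the least movement of the named helicases, at 2.34 and 2.60 RPKM in WT and 2.39 and 2.68 RPKM in the KO-labelled libraries (0.03, 95% interval -0.97 to 1.02), and the other mitochondrial helicase, Ddx28, was at 0.42. Ddx59 had groups apart with a log2 fold change of 0.94, at 0.562 and 2.16 RPKM against 2.24 and 4.61 RPKM, on 1, 3, 6 and 11 reads. Its value was 0.43 when WT library 1 was left out, 1.45 when WT library 2 was and 0.545 when KO-labelled library 2 was. Dhx32 and Dhx57 were at -0.07 and -0.20.

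The 5 untested helicases include those of the germ line. Ddx4 (Vasa) and Ddx43 were listed at 0 in all 4 libraries, where 3 reads would have come to 1.1 to 2.11 RPKM for Ddx4 and 1.5 to 2.89 RPKM for Ddx43, and Ddx25 had 1 read in all. Ddx11, a DNA helicase of sister chromatid cohesion, had 2 and 0 WT reads, against 8 and 10 KO-labelled reads, so its groups did not overlap. Ddx19b had 3, 4, 2 and 2 reads. These 5 were under the minimum level and were not tested in the reported fit.

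The paralogue pairs differed in which partner dominated. Ddx5 exceeded Ddx17 by 3.32 and 2.79 times in WT and by 4.22 and 3.87 times in the KO-labelled libraries, as ratios of RPKM. Ddx17 itself was at 13.2 and 18.1 RPKM in WT and 21.1 and 22.0 RPKM in the KO-labelled libraries, with groups apart (0.45, SE 0.39, adjusted p = 0.729 by limma). Its log2 fold change was 0.24 when WT library 1 was left out, and it overlaps Kdelr3 on the other strand. The ratio of Ddx39 to Ddx39b was 0.179 and 0.292 in WT and 0.214 and 0.269 in the KO-labelled libraries, so the ranges of the groups overlapped. Ddx21 exceeded Ddx50 by 10 and 12.7 times in WT and by 15.1 and 7.97 times in the KO-labelled libraries. The proteins are 73.0% identical for Ddx5 and Ddx17, 91.1% for Ddx39 and Ddx39b, 62.9% for Ddx21 and Ddx50 and 92.5% for Ddx19a and Ddx19b, over the aligned residues. Around motif II the coding DNA of the last pair was the same over 30 bases, about the length of a ribosome footprint, with the motif codons again in capitals.
Ddx19a: tttgttctgGACGAGGCTGATgtgatgata
Ddx19b: tttgttctgGACGAGGCTGATgtgatgata
These windows are at chr8:110979077-110979106 and chr8:111011326-111011355, both on the minus strand. A read from this stretch cannot be assigned to either gene, and how the authors' counting treated such reads is not given in the sources used here, so the levels of Ddx19a and Ddx19b are uncertain.

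The base composition of the coding sequence varied with the fold change. Coding GC content of the tested helicases ran from 41.6% to 61.3%, with a median of 51.3%, beside 53.2% for protein-coding genes. In the 24 helicases at or under that median of the helicases, 22 had a log2 fold change above 0, the median was 0.54 and 13 had groups apart, all of them upward. In the 23 above it, 13 were above 0, the median was 0.12, and 3 had groups apart upward and 3 downward, where 22.4% of protein-coding genes at any GC content were apart upward and 19.3% downward. Ddx1, Ddx5, Dhx15 and Dhx9 lie in the first set, at 43.8% to 45.1% GC, and Ddx41 and Ddx23 in the second, at 56.2% and 54.2%. Across the 47 helicases Spearman's rho between coding GC and fold change was -0.47, and across 9869 protein-coding genes it was -0.36. These are descriptions across genes that share the same 4 libraries and are not independent replicates. With the trend on GC removed within each library, the median of the helicases was 0.26 beside 0.01 for protein-coding genes, and rho across the helicases was -0.01. In the same fit the log2 fold change was 0.77 for Ddx1, 0.65 for Ddx3x and 0.61 for Dhx9. It was 0.62 for Dhx15, 0.29 for Ddx17, 0.28 for Dhx29, 0.26 for Ddx58, 0.12 for Dhx30, 0.095 for Ddx21 and 0.057 for Ddx46. It was -0.001 for Ddx19a, -0.089 for Ddx50, -0.11 for Ddx6, -0.36 for Ddx55 and -0.40 for Dhx36.

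**Figure D5:**
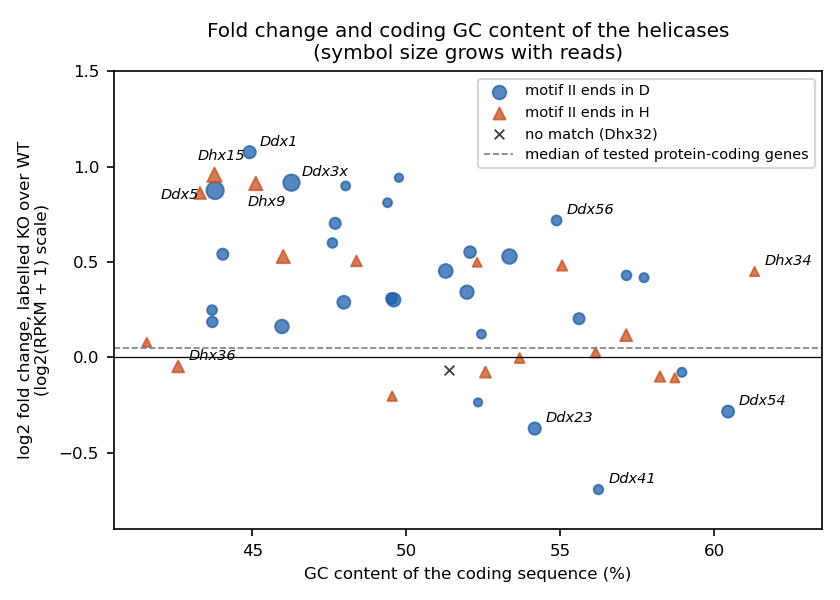
log2 fold change (labelled KO over WT) of the 47 tested helicases against the GC content of their coding sequence (percent), with circles for motif II ending in D, triangles for H and a cross for Dhx32, sized by reads. The helicases at low GC lie mostly above 0, and the 3 lowest fold changes, those of Ddx41, Ddx23 and Ddx54, lie at 54.2% GC or more.

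By motif II, the type ending in D had a median of 0.42 with 24 of 29 tested members above 0, and the type ending in H a median of 0.12 with 11 of 17 above 0. Median coding GC was 49.6% in the former and 52.4% in the latter, so the motif classes were not matched for base composition. No test was made between them.

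Runs of prolines were counted because eIF5A is known for its part in the translation of such runs. At least 3 prolines in a row occurred in 14 of the 52 helicases (26.9%) and in 25.7% of 9869 tested protein-coding genes. They were in 10 of the 18 helicases with motif II ending in H and in 4 of the 33 ending in D. Dhx37 had 7 such runs and Dhx9 had 4, and the longest run was in Ddx17. The tested helicases with a run had a median log2 fold change of 0.45 (13 genes, 9 above 0) and those without 0.31 (34 genes, 26 above 0), whereas the 2540 protein-coding genes with a run had a median of -0.13 and 41.6% above 0. Median coding GC was 55.4% in these 2540 genes, beside 53.2% for tested protein-coding genes, so genes with a run were not matched for base composition. The part of base composition in their median was not tested. The run of Ddx17, the longest, is shown with runs of Dhx15, Dhx9 (2 of its 4) and Ddx41, since helicases with runs stood near both ends of the range of fold changes. Proline codons are in capitals.
Ddx17, run of 9: CCTCCCCCTCCCCCTCCCCCTCCTCCAtct
Dhx15, run of 4: atttttgagCCACCACCTCCAaaaaaacag
Dhx9, run of 4: CCACCCCCACCCatacttagcgacacctct
Dhx9, run of 3: caattcattCCTCCTCCAaaggacaagaaa
Ddx41, run of 3: gatggtatcCCGCCACCCatcaagagcttc
Ddx41, second run of 3: cttgagtgcctgcagaagacaCCCCCACCT
They start at codon 641 of Ddx17 (chr15:79530021-79530050), codon 403 of Dhx15 (chr5:52166722-52166751), codons 87 and 589 of Dhx9 (chr1:153481214-153481243 and chr1:153465716-153465745) and codons 188 and 443 of Ddx41 (chr13:55535311-55535340 and chr13:55532038-55532067), all on the minus strand, counted from the start codon. Dhx15 and Dhx9 carry such runs and had groups apart upward, and Ddx41 carries 2 and had groups apart downward. The table holds a value per gene and no positions within it, so reads at the runs were not examined.

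RNA helicases outside the DDX and DHX names were compared as the nearest relatives. Of 23, 19 were tested, 16 were above 0, and the median was 0.41, with 0 called at an adjusted p under 0.05 and 0 at an unadjusted p under 0.05 by limma. Eif4a1, the helicase of the cap-binding complex and the archetype of the DEAD-box, was highest among them with groups apart, at 11.1 and 31.8 RPKM in WT and 50.9 and 44.6 RPKM in the KO-labelled libraries (1.29, adjusted p = 0.676 by limma). Helz was lowest with groups apart, at 2.65 and 1.69 RPKM against 1.32 and 0.741 RPKM. The cofactors that bind or switch on helicases, 45 genes of which 43 were tested, had a median of 0.22 with 29 above 0 (67.4%, beside 53.1% of protein-coding genes), 4 at an unadjusted p under 0.05 upward and 0 downward (beside 2.94% and 3.04%). Among those with groups apart, Patl1, a decapping partner of DDX6, was lowest at 17.0 and 6.93 RPKM against 4.88 and 6.93 RPKM with WT library 2 and KO-labelled library 2 nearly equal, and Gemin2, of the SMN complex, was highest at 1.37 and 0 RPKM against 3.20 and 6.15 RPKM, on 2, 0, 7 and 12 reads. Eif4e, the cap-binding protein that works with Eif4a1, was at 4.69 and 8.13 RPKM against 16.0 and 15.9 RPKM (1.23, adjusted p = 0.665 by limma).

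Of the helicase genes, 7 overlap a gene with 17 or more reads, and the strand rule of the authors' counting is not given in the sources used here. Reads were also listed for the overlapping genes Smarcc1 (258 reads over the 4 libraries, beside Dhx30), Bccip (117, Dhx32), Adgre5 (83, Ddx39), Kdelr3 (73, Ddx17), Homer3 (28, Ddx49), Dus2 (20, Ddx28) and the snoRNA Gm25128 (17, within Ddx39b). The values of these 7 helicases may hold reads of their neighbours.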

How the data were processed

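Libraries titled Polysome-Seq, but prepared from RNase I-protected fragments per the labels' extraction text, were sequenced from primary myoblasts (2 WT and 2 eIF5A-KO). The cycloheximide time in the labels is that of the study's polysome method, not of its ribosome profiling method, from which the processing below is taken. The authors removed low-quality, rRNA and tRNA reads, mapped the rest with TopHat2 (mm10 per the labels) and counted genes with HTSeq. The deposited values are RPKM computed by the authors, and the strand rule is not given in the sources used here. RPKM times gene length, divided by its smallest value above 0 in each library, gave whole numbers for 100% of values (tolerance 0.001). These were taken as reads, on the assumption that the smallest value stood for 1 read, and were used for depth and shares. limma 3.58.1 (R 4.3.3; lmFit, eBayes with trend=TRUE) was run on log2(RPKM + 1) for the 11363 genes that averaged 1 RPKM or more, with Benjamini-Hochberg adjustment over all of them. A check on simulated data came first. It used only genes of high level and fold changes larger than any seen in the helicases. It does not show how well changes of the size seen here would be found. Coding sequences came from GENCODE M21, in which all 52 helicases have the coordinates of the deposited table.

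The members, roles and gene lists were chosen with earlier results of these data known. Values per library are given for helicases picked by role, for those with at least 20 reads and groups apart at either end of the fold changes (up to 5 each), for the 3 highest and for 4 paralogue pairs, and in other lists for the lowest and highest with groups apart. Ifih1, Eif4e, Pax7 and helicases outside this rule were named after their values were seen. Alternatives were another pseudocount, other filters, scalings, a GC correction, limma without the trend, limma-voom, protein-coding genes alone, a replicate block and leaving out each library.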

Additional observations from a re-analysis of the deposited data

How the results depend on the processing

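No helicase was called at an adjusted p under 0.05 by limma under any of the 16 settings run, and the lowest adjusted p of the named helicases and Eif5a was 0.288. The count of helicases higher at an unadjusted p under 0.05, 0 as reported, was 3 with every gene above 0 (2.22% of protein-coding genes), 2 at a minimum mean of 5 RPKM (3.5%), 1 with at least 20 reads (4.18%), 16 with the same sum over all genes (16.4%), 3 by limma-voom (3.59%) and 2 with protein-coding genes only (4.23%), and between 0 and 7 with a library left out (7 without WT replicate 2). With the same sum over all genes the median of the helicases was 0.90, with 35 groups apart upward and 1 downward, where the median of all tested genes moved to 0.47. That scaling lifts other genes too, and under it 46.5% of protein-coding genes had groups apart upward and 6.11% downward, and 77.5% were above 0. Scaling the libraries to equal protein-coding reads instead left 11 helicases apart upward, fewer than the 16 as reported, and 3 downward, as before. Under it, 18.3% of protein-coding genes were apart upward and 22.6% downward. With a library left out, the median ran from 0.23 to 0.61, helicases with groups apart upward from 22 to 31 and downward from 6 to 9, since a group of 1 library separates more easily and is assumed to vary like the other group. The difference in the share of reads was 0.25 percentage points when taken over all reads (a ratio of 2.18, against 1.30 over protein-coding reads), and from 0.114 to 0.232 with a library left out.

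Over 22 named genes (the tested helicases and Eif5a), the sign of the log2 fold change turned in 19 cases. With the same sum over all genes it was 0.20 for Ddx23, 0.13 for Ddx55 and 0.48 for Dhx36, all still below the protein-coding median of 0.52, which that scaling raised from 0.05, and when libraries were scaled to equal protein-coding reads it was -0.055 for Dhx30. With the GC trend removed it was -0.001 for Ddx19a, -0.089 for Ddx50 and -0.11 for Ddx6. With a library left out, the lowest and highest values were -0.48 and 0.72 for Ddx19a, -0.23 and 0.84 for Ddx21, -0.049 and 0.54 for Ddx50, -0.034 and 0.086 for Dhx30, -0.23 and 0.13 for Dhx36, -0.071 and 0.65 for Ddx46, -0.24 and 0.57 for Ddx6 and -0.12 and 0.76 for Eif5a. The cause was not tested. Same-numbered libraries of the groups shared only a number (correlation of their deviations 0.112 over 8962 genes), and the fit with the replicate number as a block left the counts of 0 called and 0 at an unadjusted p under 0.05 and the median of 0.34 as they were. With 642429 to 704006 reads per library, 22 of the tested helicases had fewer than 100 reads, which limits what could be seen.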
